A study of Capra hircus with 12 samples.

Results

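Of the small RNAs counted in embryonic skin of the cashmere goat, 49 carried no miRNA name, were abundant, and stood at a similar level in the first and the last stage sampled. The deposited table held 649 rows and 586 distinct sequences. Of its rows, 151 had a sheep miRNA name and 482 were called only by a chromosome and a running number, such as chr15_7001, and the remaining rows were named by an unplaced scaffold or contig. The 49 sequences, behind 55 rows named by chromosome, were selected on their measured values: a largest level of at least 500 RPM (reads scaled to the same total in each library), and a ratio of E65 over E45 above 0.5 and below 2, after adding 1 RPM. Sequences listed in several rows were counted once. Their abundance and their steadiness from E45 to E65 are therefore the terms of the choice, and are given here as description only.

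Skin was taken from embryos at embryonic day 45 (E45), 55 (E55) and 65 (E65), a period in which hair follicles of the goat begin to form. Each stage had 1 small RNA library, made from a pool of 3 embryos, with no treatment and no genotype to compare. With 1 library per stage no difference between stages could be tested, and the intervals given cover counting error only, not the spread between embryos or preparations. Since RNA came from whole skin, fewer cells of a type and less RNA per cell cannot be told apart. All values above 0 were whole numbers of reads within a tolerance of 0.1 read. Distinct sequences held 2341264 reads in the E45 library, 3962662 in E55 and 2291242 in E65. The totals that set the RPM scale were 2455491, 4125742 and 2344798 reads, which count rows of identical sequence more than once. On that scale 3 reads correspond to 1.22, 0.727 and 1.28 RPM, so every member stood far above the counting floor.

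MicroRNAs are short RNAs that guide Argonaute proteins to messenger RNAs and lower their stability or translation. Target choice rests mostly on the seed, bases 2 to 8 from the 5′ end, and miRNAs that share a seed are grouped as a family. In skin, miRNAs are known to act in the epidermis and in the mesenchyme of hair follicles. For 41 of the 49 sequences the conserved vertebrate miRNA was recognised from general knowledge. These names are in neither the deposited rows nor a mature-sequence table used here, and are given only as background. For 38 of the 41, RefSeq's goat annotation (ARS1.2) lists a miRNA gene of that name or family on a chromosome given in the row name, where chrX_12824 and chrX_12828, known as miR-450a and miR-450b, were both set against 1 gene named MIR450. For chr7_3351 and chrX_13133 the gene was placed elsewhere or unplaced, for chrX_12820 no gene of the name was listed, and 8 sequences were left without a name.

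The sequences that carry the E55 pattern are shown first, in the DNA letters of the deposited table, 5′ to 3′ with the seed in capitals. The first was the 1 member with a peak at E55, and the next is a row outside the 49 with the same seed. The last 3 were the members with a dip at E55.
chr13_6312 (known as miR-1): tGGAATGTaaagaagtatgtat
chr23_9943 (not a member): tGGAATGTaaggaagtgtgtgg
chr4_2321 (known as miR-182): tTTGGCAAtggtagaactcacact
chr4_2323 (known as miR-96): tTTGGCACtagcacatttttgct
chr4_2325 (known as miR-183): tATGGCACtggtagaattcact

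The members together held a large part of each library, and their share was smallest at E55. Where members were instead chosen after scaling the libraries to equal medians, the share was smallest at E65 (34.5, 28.5 and 27.2%). Over the reads on distinct sequences, the share was 36.1% at E45 (95% Clopper-Pearson interval 36.0 to 36.2%), 30.4% at E55 (30.4 to 30.5%) and 32.5% at E65 (32.5 to 32.6%). These shares stand for 845041, 1206307 and 745330 reads. The 56 sheep-named sequences that met the same limits of level and ratio took 53.1% of the E45 library, 60.8% of E55 and 60.2% of E65. In the plot of shares by class, these 2 classes fill most of each bar, and the lower share of the unnamed members at E55 sits beside a higher share of the sheep-named ones. Shares in 1 library add up to 100%, so the 2 classes are not independent of each other. The median level of the members was 2116 RPM in E45, 1117 RPM in E55 and 1840 RPM in E65.

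**Figure D1:**
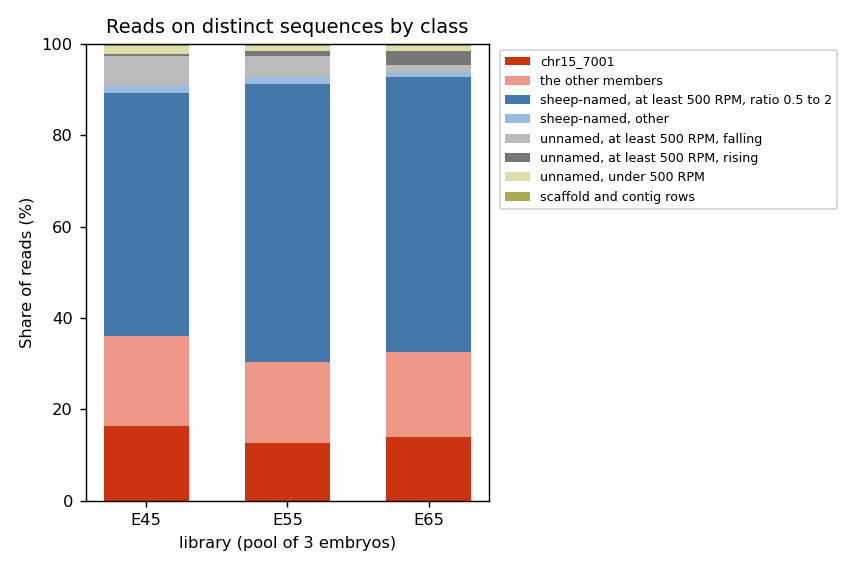
Stacked bars give the share of reads on distinct sequences (%, y axis) in each of the 3 libraries (x axis), with chr15_7001 drawn apart from the other members. The members' part of the bar was 36.1% in E45, 30.4% in E55 and 32.5% in E65.

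A single sequence carried much of this share. chr15_7001, known as miR-100 and described as a brake on mTOR and insulin-like growth factor receptor signalling, stood at 155265 RPM in E45, 121797 RPM in E55 and 135432 RPM in E65. It ranked first of all sequences in each library and made up 45.1, 41.7 and 42.6% of the members' reads. Without it the members' share was 19.8% in E45, 17.8% in E55 and 18.7% in E65, which is the same order of stages. The 10 most abundant members in each library held 77.9, 82.0 and 78.9% of the members' reads. Of the 49, 37 reached 1000 RPM in some library, 14 reached 5000 RPM and 6 reached 10000 RPM. Among the 100 most abundant sequences of a library, 35 were members in E45, 35 in E55 and 38 in E65.

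**Figure D2:**
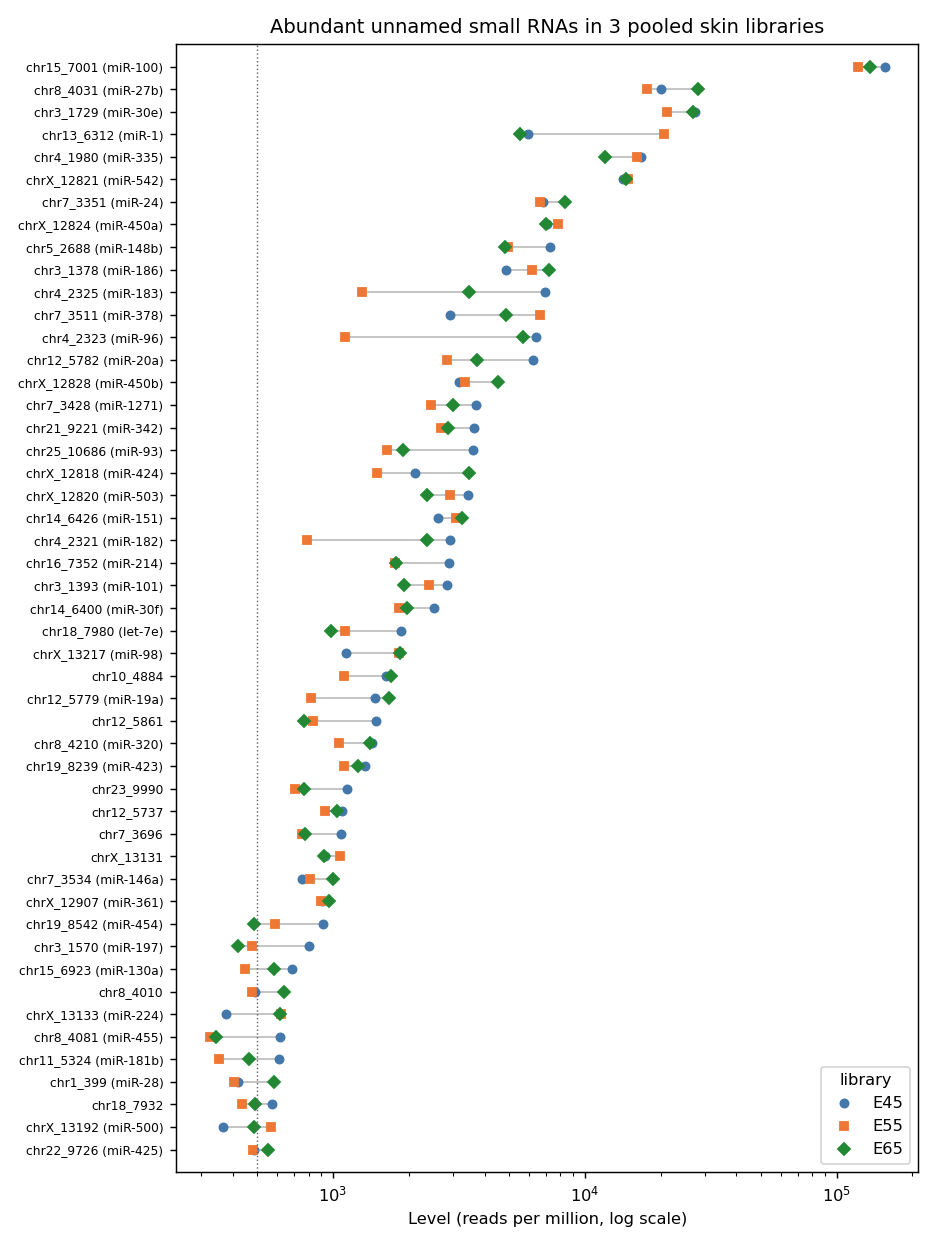
Each line is 1 of the 49 members, with its level in the E45, E55 and E65 library (RPM, log axis), and the dotted line marks the limit of 500 RPM. Names in brackets were recognised from general knowledge; chr13_6312 stands far to the right at E55, and chr4_2321, chr4_2323 and chr4_2325 far to the left.

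Of the 10 members with the highest mean, chr13_6312 alone differed by 2-fold or more between E55 and another library at equal totals. After scaling to equal medians chr3_1378 did so too, at 3565 in E45 and 7559 in E55. The sequence of chr15_7001 shares its seed and its first 15 bases with a sheep-named row, oar-miR-99a, and both are shown with the next members in order of mean level.
chr15_7001 (known as miR-100): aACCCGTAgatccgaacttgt
oar-miR-99a (not a member): aACCCGTAgatccgatcttg
chr3_1729 (known as miR-30e): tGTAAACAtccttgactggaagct
chr8_4031 (known as miR-27b): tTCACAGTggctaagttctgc
chr4_1980 (known as miR-335): tCAAGAGCaataacgaaaaatgt
chrX_12821 (known as miR-542): tGTGACAGattgataactgaaa

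Orders of the libraries below hold for equal totals. Scaling to equal medians instead would raise E55 by 1.68-fold and E65 by 1.66-fold against E45. This turns an order where E45 was the higher library by less than that, and hardly moves E55 against E65.

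oar-miR-99a stood at 3918, 3576 and 4312 RPM in the 3 libraries, far below chr15_7001. chr3_1729, of the miR-30 family, was at 27502 RPM at E45, 21287 RPM at E55 and 26840 RPM at E65. chr8_4031, of the miR-27 family known for holding back fat cell formation, was at 20128, 17706 and 28236 RPM. Both were lowest at E55, as was the partner of the latter, oar-miR-27a, with which it shares 18 bases, at 6632, 6098 and 9506 RPM, but all 3 were lowest at E45 after scaling to equal medians. chr4_1980, known as miR-335 and hosted by the imprinted MEST gene, was at 16664, 16134 and 12012 RPM and was lowest at E65. chrX_12821 was nearly level, at 14121 RPM at E45, 14781 RPM at E55 and 14606 RPM at E65, though not after scaling to equal medians (10336, 18181 and 17792). Of the remaining members among the 10 with the highest mean, chr7_3351 was at 6836, 6632 and 8358 RPM, and chrX_12824 at 7092, 7800 and 7016 RPM. chr3_1378 was higher in each later library, at 4871, 6145 and 7196 RPM, while chr5_2688 was at 7254, 4936 and 4805 RPM and was highest at E45.

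The level at E55 was set against the mean of the 2 other libraries on the log2 scale, after adding 1 RPM, and this E55 deviation was below 0 for most members. Its median was -0.27 over the 49 members (interquartile range -0.43 to 0.04, range -2.43 to 1.85), against -0.08 over all 586 distinct sequences and 0.27 over the 56 sheep-named ones of the same limits. It was below 0 in 36 of the 49 members (73.5%) and in 53.8% of all sequences. E55 was the lowest library for 29 members (59.2%) and the highest for 7 (14.3%). Over all sequences it was the lowest for 31.2% and the highest for 26.8%, and over the 140 with at least 500 RPM for 35.7% and 31.4%. For the 56 sheep-named sequences of the same limits it was the lowest for 15 (26.8%) and the highest for 30 (53.6%). After scaling to equal medians, E55 was the lowest library for 8 members and E45 for 37. The choice of members with similar E45 and E65 levels leaves less room for E55 to lie between them. These directions depend on the scale. When the libraries were scaled to equal medians instead of equal totals, every abundant sequence moved up by 0.38 at E55, only 15 of the 49 stayed below 0, and the median turned to 0.11, beside 0.25 over all sequences. Such a scaling shifts all abundant sequences of a library alike, so it leaves their order within the library unchanged. For 39 of the 49 (79.6%), the E55 level was within 1.5-fold of the mean of the other 2 libraries, as it was for 64.7% of all sequences and 61.4% of the 140.

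**Figure D3:**
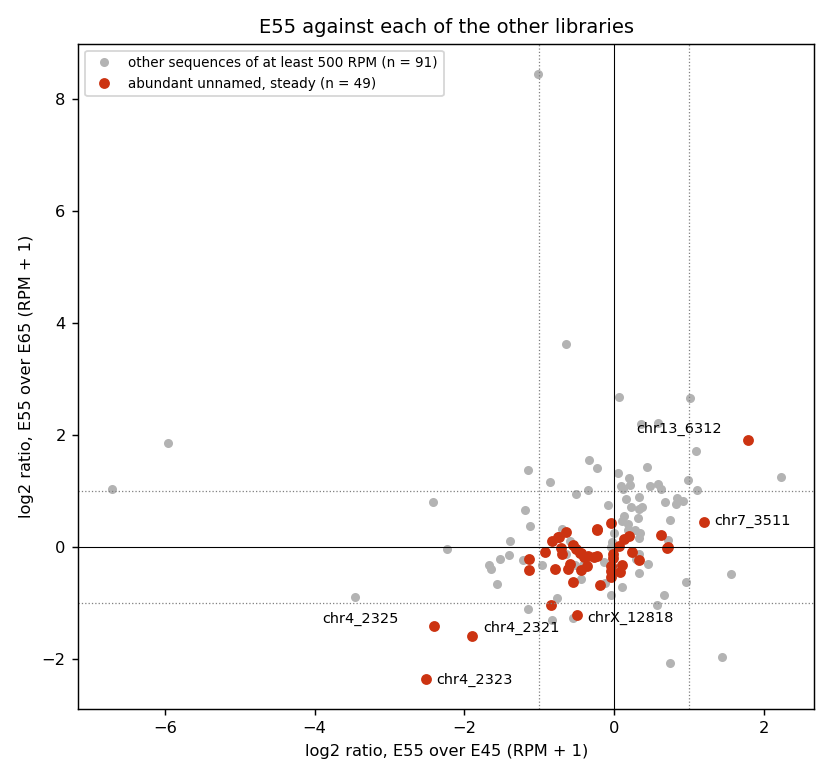
Each point is a distinct sequence of at least 500 RPM, with the log2 ratio of E55 over E45 (x axis) and of E55 over E65 (y axis), after adding 1 RPM; dotted lines mark 2-fold. Of the 49 members (red), chr13_6312 lies beyond 2-fold upward on both axes, and chr4_2321, chr4_2323 and chr4_2325 beyond it downward on both.

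The member with a peak at E55, at least 2-fold above both other libraries, was chr13_6312, known as miR-1, the miRNA of heart and skeletal muscle that represses non-muscle and growth genes during muscle differentiation. Its level was 5973 RPM at E45 (14667 reads), 20686 RPM at E55 (85347 reads) and 5524 RPM at E65 (12953 reads). E55 was thus 3.46-fold above E45 and 3.74-fold above E65, a deviation of 1.85. The same sequence is listed on a second chromosome as chr24_10367, with the same value, so reads from both loci cannot be told apart. Over all distinct sequences 2.22% had such a peak, and 3.57% of the 140 with at least 500 RPM, so that 1 of 49 members (2.04%) was near the background. Among the 56 sheep-named sequences of the same limits, 3 (5.36%) had such a peak. These were oar-miR-381-3p, at 155.57, 731.99 and 307.06 RPM, oar-miR-655-3p, at 3140, 6728 and 3322 RPM, and oar-miR-133.

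Outside the 49, 3 rows that are also known from muscle, chr23_9943, oar-miR-133 and chr13_6132, were set beside this peak after their values had been seen. chr23_9943 has the seed of chr13_6312 and is known as miR-206, a skeletal muscle miRNA, and stood at 10726, 16161 and 3500 RPM. oar-miR-133, which in vertebrate genomes is encoded next to miR-1 or miR-206, stood at 3106, 6623 and 2013 RPM. chr13_6132, known as miR-499, from a myosin heavy chain gene, stood at 1246, 2519 and 399.18 RPM. All 3 were highest at E55, as was chr13_6312, also after scaling to equal medians. E65 was the lowest library for each as deposited, while after scaling chr13_6312 and oar-miR-133 were lowest at E45. Of the 5 muscle miRNA names listed for a marker check, 0 matched a row, because oar-miR-133 carries no letter and the other sequences have no name. With chr13_6312, the 4 sequences recognised as muscle miRNAs summed to 21051, 45989 and 11436 RPM, and none was at 0. Without chr13_6312 the sum was 15078, 25303 and 5912 RPM. No table of mature sequences was used, so both sums may leave out further muscle miRNAs. chr23_9945, close in running number to chr23_9943, stood at 985, 1261 and 275 RPM and is in neither sum. How much muscle the 3 pools held, and its part in this peak, was not tested.

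**Figure D4:**
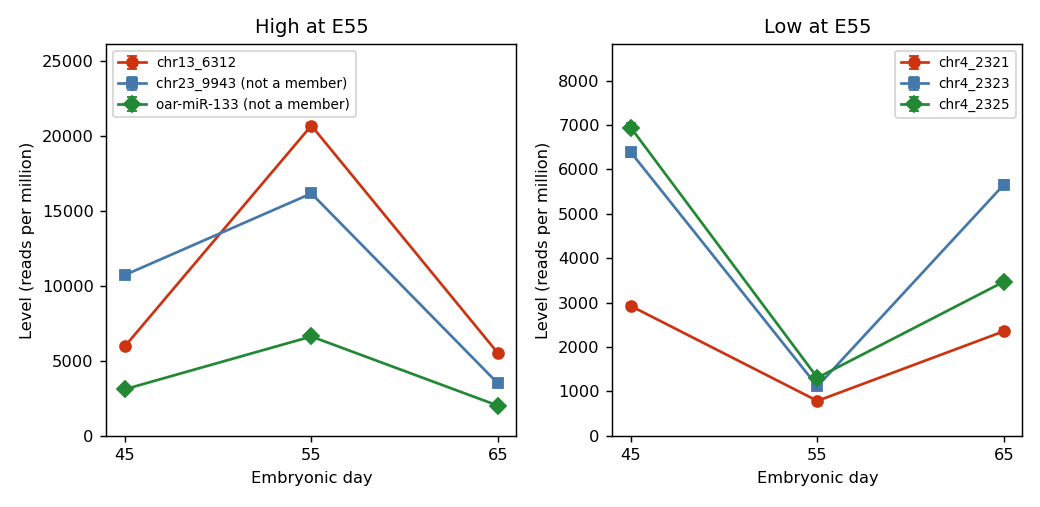
Levels (RPM, y axis from 0) against embryonic day (x axis) for chr13_6312 with 2 rows outside the 49 (left), and for the 3 members with a dip (right); bars are 95% exact Poisson intervals and are mostly smaller than the symbols. chr13_6312 reached 20686 RPM at E55, while the 3 members on the right stood between 786 and 1308 RPM there.

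The members with a dip at E55, at least 2-fold below both other libraries, were chr4_2321, chr4_2323 and chr4_2325. They are known as miR-182, miR-96 and miR-183, which are encoded together in vertebrates and best known from sensory cells of the inner ear, eye and sensory ganglia. chr4_2323 stood at 6384 RPM at E45, 1115 RPM at E55 and 5657 RPM at E65, so E55 was 5.72-fold and 5.07-fold below the others. chr4_2325 stood at 6938, 1308 and 3471 RPM, with E55 5.30-fold below E45 and 2.65-fold below E65. chr4_2321 stood at 2922, 786 and 2355 RPM, with E55 3.71-fold below E45 and 2.99-fold below E65. The 3 were thus high at both ends and low in the middle, and their levels at E55 rested on 3244 to 5398 reads each. Their running numbers lie close together and their known counterparts come from 1 locus, so they are not 3 independent cases.

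Over all distinct sequences 1.71% had such a dip, and 2.86% of those with at least 500 RPM, against 3 of 49 members (6.12%). Both of these backgrounds include the members. Of the 56 sheep-named sequences of the same limits, 1 (1.79%) had such a dip. The other abundant sequence with a dip was oar-miR-103, at 1008, 452 and 977 RPM. The peak and the 3 dips were also called after scaling to equal medians, with deviations of 2.23 for chr13_6312, -2.05 for chr4_2323, -1.53 for chr4_2325 and -1.36 for chr4_2321. Sums of marker miRNAs of skin layers were taken only over rows found by name. The epidermal rows found by name, 3 of 7 listed, summed to 118.51, 198.99 and 759.13 RPM. Of this, oar-miR-200b, the most abundant, made up 76.56, 120.95 and 451.21 RPM. Listed epidermal miRNAs in rows without a miRNA name are not in this sum, so it does not give the level of epidermal miRNAs as a whole. The dermal rows, 3 of 6 listed, summed to 109119, 115421 and 130920 RPM, with oar-miR-143 the most abundant at 67984, 83128 and 95670 RPM. The other dermal rows differed from each other, with oar-miR-199a-3p lowest at E55 as deposited, at 32610, 22583 and 27995 RPM, and oar-miR-152 highest there, at 8525, 9710 and 7255 RPM. A further listed dermal miRNA, miR-214, was recognised in a member, chr16_7352, at 2889, 1762 and 1774 RPM, where E55 and E65 were within counting error of each other. Listed neural, endothelial, erythroid, liver and endocrine names matched 0 rows, which says nothing of these cells, since most rows carry no miRNA name and were not matched by sequence. The white blood cell miRNA oar-miR-150 stood at 6.11, 8.24 and 13.7 RPM. Whether the make-up of the pools had a part in the dip was not tested.

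Short of 2-fold against both libraries, 4 more members had the next largest positive deviations. chr7_3511, known as miR-378, from a gene for a mitochondrial regulator, stood at 2903 RPM at E45, 6641 RPM at E55 and 4845 RPM at E65, a deviation of 0.82. chrX_13192 stood at 367.34, 564.99 and 485.76 RPM, with a deviation of 0.42. chrX_13133, at 375.48, 618.8 and 613.7 RPM, and chrX_13217, at 1124, 1832 and 1840 RPM, were low at E45 and alike in the later libraries. Among the members low at E55, after the 3 on chromosome 4, came chr12_5779, known as miR-19a, at 1467, 817 and 1671 RPM (deviation -0.94), and chrX_12818, known as miR-424, at 2116, 1496 and 3458 RPM (deviation -0.85). Both kept a deviation below 0 after scaling to equal medians.

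Several seeds were held by more than 1 sequence, which allows their E55 deviations to be set side by side. The 49 members had 44 seeds, of which 5 were shared by 2 or more members and 9 were shared with a sheep-named row. Counting all rows of the table with more than 100 reads in each library, 13 members' seeds had at least 2 sequences, and in 11 of these (84.6%) all sequences deviated to the same side. Of the 14 such seeds that no member holds, 13 (92.9%) were one-sided, a share no smaller than that of the members' seeds, and most members lay below 0 in any case. For the members' seeds, all were below 0 in 10 and above 0 in 1, which became 4 and 5 after scaling to equal medians. Near-identical sequences may share reads, so members of a seed group are not independent.

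**Figure D5:**
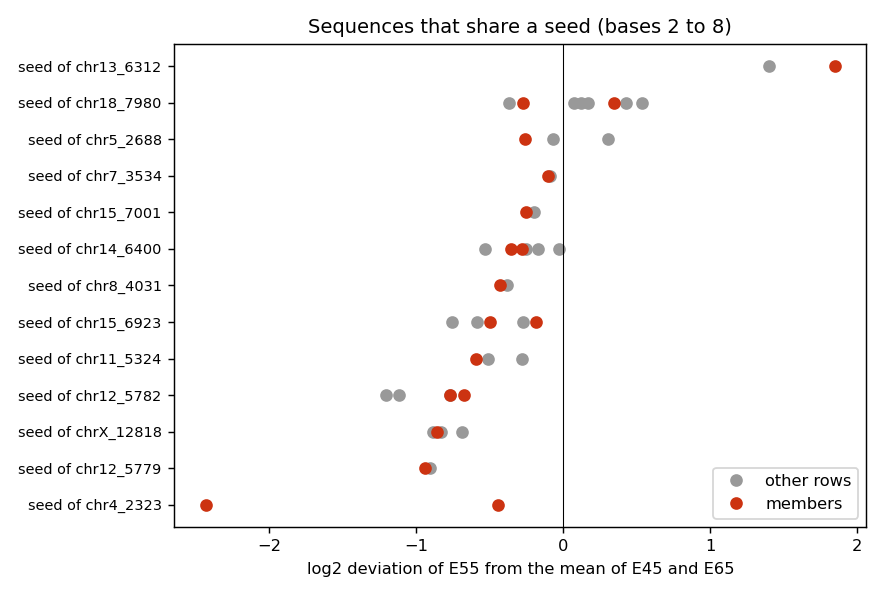
Each line holds the sequences that share the seed of the member named on the left, with their log2 deviation of E55 from the mean of E45 and E65 (x axis); members are red and other rows grey, all with more than 100 reads in each library. The seed of chr13_6312 lies at the high end, and those of chrX_12818 and chr12_5779 fall close together below 0.

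The members that share a seed with each other, except those printed above, are shown with chrX_12818 and chr12_5779, whose seeds are shared with other rows.
chr12_5782 (known as miR-20a): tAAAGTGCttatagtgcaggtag
chr25_10686 (known as miR-93): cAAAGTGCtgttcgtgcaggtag
chrX_12818 (known as miR-424): cAGCAGCAattcatgttttga
chr12_5779 (known as miR-19a): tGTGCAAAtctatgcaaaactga
chr18_7980 (known as let-7e): tGAGGTAGgaggttgtatagtt
chrX_13217 (known as miR-98): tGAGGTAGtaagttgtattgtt
chr7_3428 (known as miR-1271): cTTGGCACctagtaagtactca
chr14_6400 (known as miR-30f): tGTAAACAccctacactctcagc
chr15_6923 (known as miR-130a): cAGTGCAAtgttaaaagggcat
chr19_8542 (known as miR-454): tAGTGCAAtattgcttatagggttt

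chr12_5782 and chr25_10686, of the miR-17 family that promotes cell division, stood at 6220, 2830 and 3743 RPM and at 3600, 1635 and 1897 RPM. With the 3 other sequences of this seed above 100 reads, all 5 deviated below 0, from -1.20 to -0.68, and stayed below 0 after scaling. The 4 sequences with the seed of chrX_12818, the miR-15 and miR-16 family that slows the cell cycle, deviated from -0.89 to -0.69 and also stayed below 0. chr12_5779 and oar-miR-19b, at 7282, 4965 and 11900 RPM, deviated by -0.94 and -0.91. Of these, chr12_5779 and chr12_5782 have neighbouring numbers.

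In other seed groups the members differed. The 2 with the let-7 seed had opposite orders of E45 and E65: chr18_7980 was at 1871, 1117 and 979 RPM, whereas chrX_13217 was lowest at E45. Over the 8 sequences of this seed above 100 reads, deviations ran from -0.37 to 0.54. chr7_3428 has the seed of chr4_2323 but not its dip, with 3710, 2454 and 3005 RPM and a deviation of -0.44. The remaining pairs, chr3_1729 with chr14_6400 and chr15_6923 with chr19_8542, had small deviations, between -0.50 and -0.18, which partly turned sign after scaling.

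Running numbers within 10 of each other brought 12 members into 4 groups. What the numbers stand for is not given in the sources used here, but the ranges of the 30 chromosomes did not overlap. The largest group, chrX_12818 to chrX_12828, held 5 members known as miR-424, miR-503, miR-542, miR-450a and miR-450b, which form a cluster on the X chromosome of mammals. These 5 had different orders as deposited: chrX_12820 was lower in each later library, at 3422, 2911 and 2355 RPM, chrX_12828 was higher, at 3158, 3344 and 4536 RPM, and chrX_12821 was nearly level. After scaling to equal medians all 5 were lowest at E45. chr12_5779 and chr12_5782 were both lowest at E55, and chrX_13131 and chrX_13133 both deviated above 0. In all, 21 chromosomes held a member, with 10 on X, and 3 members had rows on more than 1 chromosome.

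The members had the usual length of miRNAs and most began with T. Their median length was 22 bases (18 to 25), 40 of 49 (81.6%) were 21 to 23 bases long, against 94.6% of the 56 sheep-named sequences of the same limits and 85.0% of all 586, and the median GC content was 45.5%. T, read as U in the RNA and the base that Argonaute proteins prefer at the 5′ end, came first in 30 members (61.2%), against 46.4% of the 56 sheep-named sequences, 60.7% of the 140 abundant sequences, which include the members, and 40.6% of all 586. A came first in 20.4% of the members and in 44.6% of the sheep-named sequences.

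The 8 members for which no miRNA was recognised made up 2.44, 2.16 and 2.24% of the members' reads at E45, E55 and E65. They were not compared with a table of mature sequences, so some of them may be known miRNAs. Of the 8, 4 are shown for features of their sequence.
chr12_5737: tCCCGGGTttcggcacca
chr10_4884: aAAACACGaacaaacttttcgg
chr8_4010: tGAAAAGTtcgttctggttttt
chr12_5861: tGTTGTACttttttttttgttc

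chr12_5737, the shortest member, ends in CCA, the bases added to the 3′ end of mature transfer RNAs, as did 1.19% of all distinct sequences. It stood at 1088, 930 and 1037 RPM. chr10_4884 and chr8_4010 hold the letters AACTTTT on one strand or the other, which 67 distinct sequences (11.4%) did, and these 2 were the only ones of the 67 above 500 RPM. chr10_4884 stood at 1623, 1109 and 1707 RPM, and chr8_4010 at 489, 475 and 641 RPM. Over 19 bases the reverse complement of chr8_4010 matched chr19_8792, which stood at 119, 94.5 and 73.8 RPM. chr12_5861, with a run of 10 T, was at 1480, 833 and 770 RPM. The 8 had deviations from -0.59 to 0.20, and those between -0.38 and 0 turn above 0 after scaling.

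Several members lay close to the limits that chose them. The ratio of E65 over E45 was 0.50 for chr4_2325 and 0.52 for chr12_5861, just inside, and 0.50 and 0.49 for chrX_13199 and chr12_5785, just outside. At the upper limit chr7_3511 (1.67) and chrX_13217 (1.64) were the nearest inside, and chr26_10908 (2.87) and chr7_3510 (3.03) the nearest outside. chr26_10908 has the first 20 bases of a member, chr7_3534, which stood at 754, 808 and 1003 RPM against 717, 1141 and 2060 RPM. By level, chr22_9726 (553 RPM) and chrX_13192 (565 RPM) were just inside 500 RPM, and chrX_13087 (485 RPM) and chr15_6780 (460 RPM) just outside.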

How the data were processed

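The authors deposited 1 table of normalized levels for 3 small RNA libraries (called TPM there), and the submitters' processing notes name Bowtie. The deposited values sum to 1000018, 1000009 and 1000012 over all rows of the libraries and were therefore used as RPM. The genome build is not given in the sources used here. Rows of identical sequence (110 rows, 47 sequences) each carry the full value, so shares were taken over the 586 distinct sequences, which sum to 953481, 960472 and 977160 RPM. Reads were recovered as whole multiples of 1 read. No count test was possible with 1 library per stage. Ratios and deviations used RPM + 1, and intervals are exact (Poisson, Clopper-Pearson, 95%). Code was tested on simulated data. Python 3.11.15, numpy 2.4.6, pandas 2.3.3, scipy 1.17.1 and matplotlib 3.10.9 were used. Named sequences were the 10 of highest mean, the 5 largest deviations each way, 2 on each side of each limit, shared seeds and overlaps with sheep-named rows. Exceptions, chosen after their values were seen, were 3 muscle rows, oar-miR-103, oar-miR-381-3p, oar-miR-655-3p, chr16_7352, chr19_8792 and chr23_9945. Further exceptions were members in the groups of running numbers, rows beside them, and members without a recognised miRNA. The members, lists and rules were chosen with earlier results of these data known. The deposited RNA-seq table of 9 embryos was not used.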

Additional observations from a re-analysis of the deposited data

How the results depend on the processing

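With 1 library per stage, no replicate could be left out. No paired analysis was possible because no stage had more than 1 small RNA library. Scaling the libraries to equal medians (477 rows, values shifted by -0.45 in E45, 0.30 in E55 and 0.29 in E65 on the log2 scale) chose 48 sequences, of which 35 were among the 49. Their median E55 deviation reversed to 0.101, 3 peaks were called in place of 1 (with chr13_6132 and chr23_9943 added), the 3 dips remained, and the shares at E45, E55 and E65 were 34.5, 28.5 and 27.2%, with E65 lowest. Other settings moved the shares beyond counting error without changing the lowest library. They were 35.3, 29.8 and 31.9% with a limit of 1000 RPM, 36.9, 31.0 and 33.1% with 100 RPM (81 members), 35.9, 30.3 and 32.3% with the limit on the mean, and 32.0, 27.7 and 29.5% with ratios within 1.5-fold, where chr4_2325 dropped out and 2 dips were left. They were 36.4, 32.7 and 33.6% with identical rows kept apart (2 peaks, from 1 sequence), 34.4, 29.2 and 31.8% over the deposited totals and 19.8, 17.8 and 18.7% without chr15_7001, the last 2 added after seeing the data. At 3-fold, 1 dip remained, chr4_2323, and the peak remained, while at 1.5-fold there were 4 dips and 1 peak. A pseudocount of 10 moved none of the 49 deviations beyond its counting error. Depth limits none of these values.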
